A study of Mus musculus with 2 samples.

Results

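The 9 genes described here encode enzymes and cytokines through which myeloid-derived suppressor cells (MDSCs) hold back T cells: Arg1, Arg2 and Nos2 of arginine use, Ido1 and Il4i1 of tryptophan and other amino acid breakdown, Entpd1 and Nt5e of extracellular adenosine, and the cytokines Tgfb1 and Il10. They were chosen by name, as rows of the deposited gene expression data, and all 9 were found among 34745 listed genes. The question was whether their mRNA differed in monocytic MDSCs (M-MDSCs) induced with and without CHBP, a cyclic peptide derived from erythropoietin.

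M-MDSCs were induced from bone marrow of C57BL/6 mice aged 6 to 8 weeks in a 7-day culture, and both groups received GM-CSF, a myeloid growth factor, at 50 ng/ml. CHBP- M-MDSC had GM-CSF alone, and CHBP+ M-MDSC had GM-CSF together with CHBP. The labels write the strain as C57BL/6 for CHBP- M-MDSC and as C57BL/7 for CHBP+ M-MDSC, whereas the methods name only C57BL/6. The labels give no CHBP dose, the methods give 20 μM, and the doses in the study's results are in nM and include 20 nM. M-MDSCs were defined by sorting as CD11b+Ly6G-Ly6C high, with a stated purity above 90%, so they are cells made in culture and not taken from an animal with a tumor or graft. Each condition was sequenced as 1 library, with 16484504 counted reads for CHBP- and 16280466 for CHBP+ M-MDSC. There was no replicate, so no spread between cultures could be measured, and CHBP cannot be told apart from any other difference between the libraries. How many mice gave the cells of a library was not given in the sources used here.

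Arginase and inducible nitric oxide synthase compete for arginine, which T cells need to divide. Indoleamine 2,3-dioxygenase and the secreted amino acid oxidase IL4I1 consume tryptophan and other amino acids and release products that restrain T cells. CD39 and CD73, encoded by Entpd1 and Nt5e, turn extracellular ATP stepwise into adenosine, which dampens lymphocytes through its receptors. TGF-β1 and IL-10 are secreted cytokines that limit the activation of T cells and antigen-presenting cells.

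The study also followed iNOS by qPCR, and its primers show which part of the Nos2 mRNA that assay reads. The pair matched 1 gene in the protein-coding transcripts of GENCODE M1 (build NCBIM37), and the amplified segment lies within the coding sequence. In the 4192-base Nos2 transcript the segment runs from base 3537 to base 3681, over exons 26 to 27 of 27. The sequence is given on the strand of the mRNA, with the forward primer and the site of the reverse primer in capitals.

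Nos2: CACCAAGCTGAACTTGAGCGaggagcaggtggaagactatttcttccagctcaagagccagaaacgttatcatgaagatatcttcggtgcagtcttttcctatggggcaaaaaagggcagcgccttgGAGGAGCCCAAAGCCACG

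The qPCR values themselves were not analysed here. The RNA sequencing counts reads over the whole gene, of which this segment is a small part.

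The mRNA of these effectors was unevenly distributed. Arg1 was the most abundant, with 69.6% of the summed FPKM of the 9 genes without CHBP and 71.4% with CHBP. With the length of the longest coding transcript of each gene in GENCODE M1 in place of the length behind the FPKM, its share would be 48.7% and 50.8%. FPKM scales the reads of a gene by its length and by library size. Tgfb1, Arg2, Il4i1, Entpd1 and Nt5e followed in that order in both libraries. Nos2, Il10 and Ido1 stayed under 1 FPKM in both. The exact 95% Poisson intervals of neighbours among the higher 6 did not overlap in either library, while those of Nos2, Il10 and Ido1 overlapped in CHBP- M-MDSC. Thus 6 of the 9 genes reached 1 FPKM in at least one library.

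**Figure D1:**
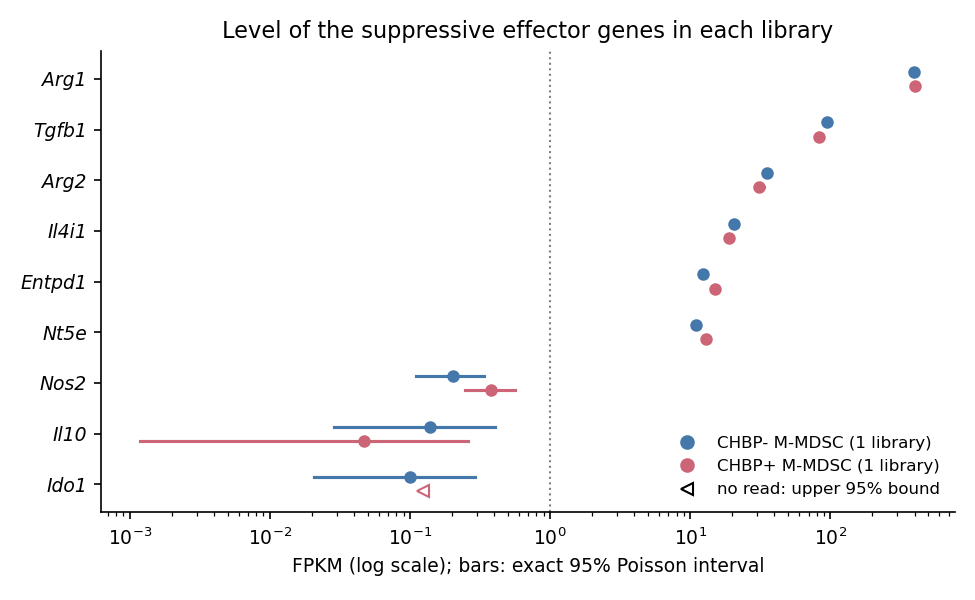
FPKM of the 9 genes on a log axis in CHBP- (blue) and CHBP+ (red) M-MDSC, 1 library each. Points are FPKM, bars are exact 95% Poisson intervals of the reads, the open triangle is the upper bound for a gene with no read, and the dotted line marks 1 FPKM. Arg1 lies near 400 FPKM in both libraries, and Nos2, Il10 and Ido1 lie left of the dotted line.

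None of the 6 effectors that reached 1 FPKM differed between the libraries by the study's fold threshold of 1.5. Nos2, below 1 FPKM, had a read ratio above 1.5 that counting error could not separate from 1. For this threshold the log2 ratio of FPKM + 1, CHBP+ over CHBP-, was used over the 10948 genes of at least 1 FPKM in one library, of which 3.42% were at least 1.5-fold higher and 2.89% at least 1.5-fold lower in CHBP+ M-MDSC. Among the 6 effectors in that set, 3 were above 0 and 3 below, with a median log2 ratio of -0.05 against -0.03 over all 10948 genes. The log2 ratio followed gene length, and with that trend removed the median of the 6 effectors turned to 0.10, with 4 of 6 above 0. The reads of each gene were also set against the library totals by a binomial test (exact, two-sided) on the 14162 genes that had 10 reads or more in sum, adjusted by the Benjamini-Hochberg method. This test compares the 2 libraries and not the conditions, and it covers counting error only. With an adjusted p of at most 0.05 it called 21.9% of all genes tested higher and 22.2% lower in CHBP+ M-MDSC. Of the 7 effectors tested, it called 2 higher (Entpd1 and Nt5e) and 3 lower (Tgfb1, Arg2 and Il4i1), and it did not call Arg1 or Nos2.

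**Figure D2:**
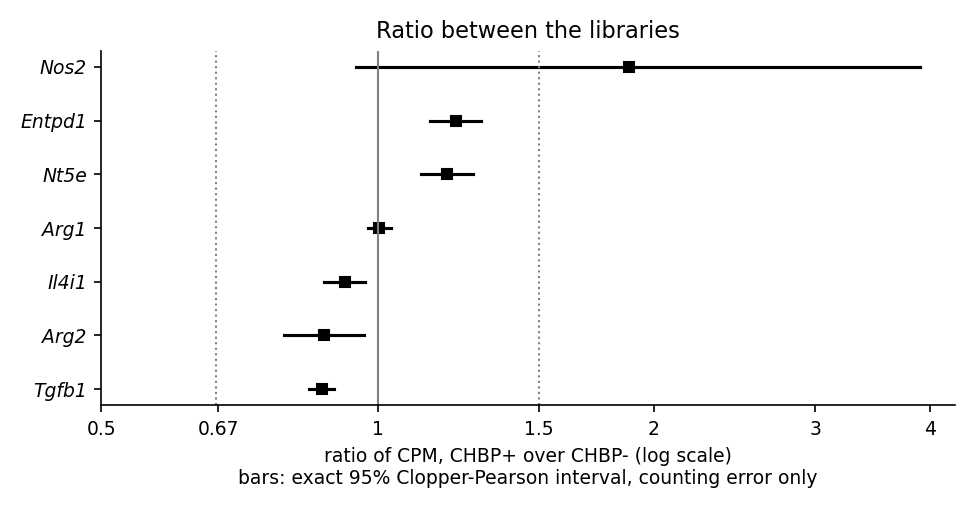
Ratio of CPM, reads scaled to library size, in CHBP+ over CHBP- M-MDSC for the 7 genes with more than 3 reads in a library. Squares are ratios on a log axis, bars are exact 95% Clopper-Pearson intervals for counting error, the solid line marks 1 and the dotted lines mark 1.5-fold in each direction. Arg1 sits at 1.00, Entpd1 and Nt5e to its right, Il4i1, Arg2 and Tgfb1 to its left, and the wide bar of Nos2 spans from 0.947 to 3.90.

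Arg1 (ENSMUSG00000019987, chromosome 10, 24915208 to 24927470) encodes the cytosolic arginase, which splits arginine into ornithine and urea. The CHBP- library held 9723 reads of it and the CHBP+ library 9644. These are 399.6 and 401.3 FPKM, ranks 102 and 85 of all listed genes. Arg1 mRNA was thus at nearly the same level in the 2 libraries. The CPM ratio was 1.00, with a 95% interval from 0.976 to 1.03 for counting error, so an increase of 1.5-fold lies outside what counting error allows between these libraries. The adjusted p was 0.856 by the exact binomial test. Against genes of its own length, with the trend of the log2 ratio with gene length removed, Arg1 stood higher, at 0.26 on the log2 scale.

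Arg2 (ENSMUSG00000021125, chromosome 12, 79130777 to 79156301) encodes the mitochondrial arginase. Its reads numbered 836 without CHBP and 722 with CHBP, which are 35.5 and 31.1 FPKM. Arg1 was 11.3 times as high as Arg2 per length in CHBP- and 12.9 times as high in CHBP+ M-MDSC. The CPM ratio of Arg2 was 0.875 (95% interval 0.791 to 0.967) with an adjusted p of 0.0216 by the exact binomial test. With the length trend removed its log2 ratio turned from -0.19 to 0.07. The last 285 bases of its listed span also belong to Vti1b, a vesicle fusion gene, which had 1204 and 997 reads and a similar ratio of 0.839.

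Nos2 (ENSMUSG00000020826, chromosome 11, 78920787 to 78960254) encodes the inducible nitric oxide synthase iNOS. Only 14 reads were counted without CHBP and 26 with CHBP. At 0.203 and 0.381 FPKM, Nos2 was near the limit of detection in both libraries, while Arg1 was 1972 and 1053 times as high per length. The CPM ratio was 1.88, but its 95% interval ran from 0.947 to 3.90, with an adjusted p of 0.114 by the exact binomial test. The depth therefore allows no difference, and also an increase well past 1.5-fold, in a transcript of which few copies were counted.

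The enzymes around arginase were described as a list of 32 genes, of which 27 reached 1 FPKM. Here 21 of the 27 were below 0 and 6 above, with a median log2 ratio of -0.14, which was -0.05 with the length trend removed. On the scale of FPKM + 1, 2 genes were at least 1.5-fold apart, both higher in the CHBP+ library. Slc7a2, a cationic amino acid transporter that brings arginine into myeloid cells, had 976 and 1800 reads, a CPM ratio of 1.87 (95% interval 1.73 to 2.02). Azin1, the antizyme inhibitor that protects ornithine decarboxylase from degradation, had 2262 and 3605 reads, a ratio of 1.61 (1.53 to 1.70). The most abundant genes of the list were Odc1, Ass1 and Pts, which encode ornithine decarboxylase, argininosuccinate synthase and an enzyme of the nitric oxide synthase cofactor. Odc1 had 76.1 and 64.9 FPKM, Ass1 74.4 and 68.5 FPKM, and Pts 48.8 and 39.7 FPKM, with log2 ratios of -0.23, -0.12 and -0.29. With the length trend removed these were -0.080, -0.00016 and -0.00074. On the CPM ratio, Paox, a polyamine oxidase, was also past 1.5-fold, and lower, with 116 and 75 reads (ratio 0.655, 95% interval 0.483 to 0.883). In the read test 3 of 28 genes of this list were called higher and 10 lower, against 21.9% and 22.2% of all genes. With the trend of the log2 ratio with gene length removed, Slc7a2 was at 0.46 and Azin1 at 0.45, below the threshold of 1.5-fold.

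Ido1 (ENSMUSG00000031551, chromosome 8, 24584136 to 24597009), the interferon-induced enzyme that opens the tryptophan ring, was counted with 3 reads in the CHBP- library and 0 in the CHBP+ library. A count of 0 still allows up to 3 reads, or 0.184 CPM, so no fold was computed. Its relative Ido2 had 4 and 2 reads, and Tdo2, which carries out the same reaction in liver, had no read in either library. Ido1 mRNA was at the floor of detection in both conditions.

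Il4i1 (ENSMUSG00000074141) is listed on chromosome 7 from 44816088 to 44840809. The row held 3079 reads without CHBP and 2800 with CHBP, equal to 20.5 and 18.9 FPKM. Its CPM ratio was 0.921 (95% interval 0.875 to 0.970), with an adjusted p of 0.00488 in the exact binomial test. These reads cannot be assigned to Il4i1 alone. In RefSeq on GRCm38.p6, Il4i1 occupies 44836288 to 44840809, which is 18.3% of the listed span, and the listed start is the start of Nup62, a nuclear pore gene that lies wholly inside the span (44816088 to 44831836). The gene length behind the FPKM of the row was 9107 bases, more than the 4097 bases of Il4i1 exons in GENCODE M1 and more than the 6835 bases of Il4i1 and Nup62 exons together. The Il4i1 row overlaps no other listed row except that of Atf5, so no separate row lies at the RefSeq position of Nup62. The row also shares 512 bases with Atf5, a stress-response transcription factor, with 716 reads in the CHBP- library against 1496 in the CHBP+ library, a ratio of 2.12 (95% interval 1.93 to 2.32). Summed with Atf5, the row had 3795 and 4296 reads and the direction turned. The read ratio was 1.15, and the log2 ratio of the summed FPKM was 0.47. That sum holds all reads of Atf5, so it cannot show how many reads of the row came from Atf5. Since the row also covers Nup62, the level and direction of Il4i1 mRNA are uncertain in these data.

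**Figure D3:**
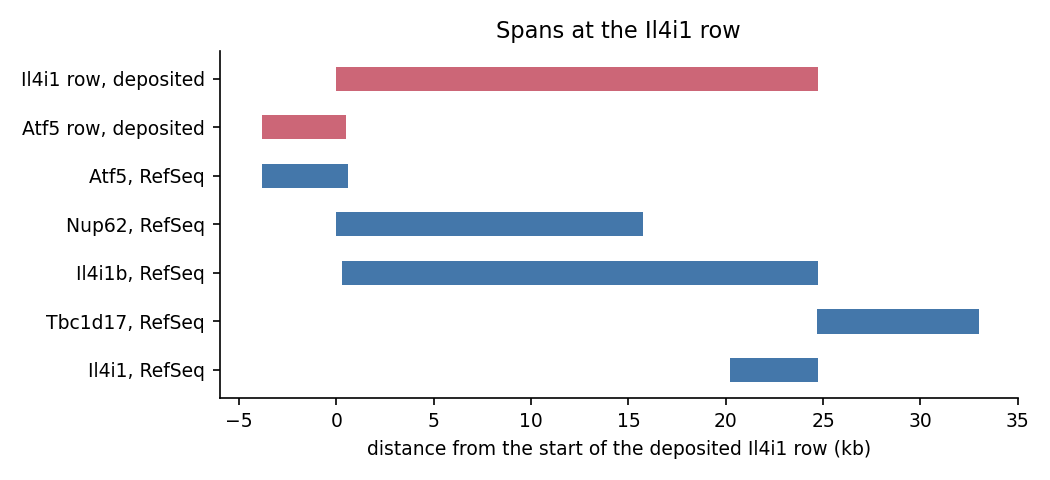
Spans around the deposited Il4i1 row, in kb from its start, with deposited rows in red and RefSeq genes of GRCm38.p6 in blue. The deposited Il4i1 row covers all of Nup62 and Il4i1b (a longer RefSeq gene that includes nearly all of the Il4i1 span) as well as Il4i1 at its right end, and it meets Atf5 at its left end and Tbc1d17 at its right end.

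Of 23 genes of tryptophan uptake, breakdown and sensing, 13 reached 1 FPKM, with 9 above 0 and 4 below and a median log2 ratio of 0.14. Downstream of kynurenine the levels were uneven. Haao, which acts later on the path to NAD, had 19.2 and 15.8 FPKM. Kmo, which hydroxylates kynurenine, had 4.16 and 4.24 FPKM, and Kynu, which cleaves it, had 0.585 and 0.655 FPKM. The uptake side was abundant, with Slc3a2 at 57.8 and 55.7 FPKM and Slc7a5 at 53.7 and 48.7 FPKM, the pair that forms the LAT1 transporter of large neutral amino acids. Ahr, the receptor that senses kynurenine, had 12.6 and 15.4 FPKM, and its target Tiparp 33.2 and 40.6 FPKM, with CPM ratios of 1.22 for each. Afmid, the formamidase that follows Ido1, was at least 1.5-fold apart, with 130 and 40 reads, a log2 ratio of -0.77. Its span overlaps those of Tk1 (353 and 328 reads) and Gm20708 (10 and 53 reads), and the 3 rows summed to 493 and 421 reads, a ratio of 0.865. In the read test 6 of 18 genes of the list were called higher and 3 lower, against 21.9% and 22.2% of all genes.

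Entpd1 (ENSMUSG00000048120, chromosome 19, 40612366 to 40741602) encodes CD39, which removes phosphates from extracellular ATP and ADP. The reads were 1745 without CHBP and 2096 with CHBP, equal to 12.4 and 15.1 FPKM. The CPM ratio was 1.22 (95% interval 1.14 to 1.30). Nt5e (ENSMUSG00000032420, chromosome 9, 88327197 to 88372092) encodes CD73, which turns AMP into adenosine. Here 1713 reads stood against 2015 with CHBP, equal to 10.96 and 13.06 FPKM, with a CPM ratio of 1.19 (95% interval 1.12 to 1.27). The consecutive enzymes of the adenosine path were thus both higher in the CHBP+ library by about the same ratio, more than counting error allows (adjusted p = 1.05e-08 for Entpd1 and 5.75e-07 for Nt5e in the exact binomial test) and less than 1.5-fold. By FPKM, Entpd1 was 1.13 times as high as Nt5e in CHBP- and 1.16 times in CHBP+ M-MDSC, an order that turned with the length of the longest coding transcript. Their log2 ratios of 0.26 and 0.23 stood at percentiles 83.7 and 81.2 of all 10948 genes, so that many other genes were as far or farther up.

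Among 29 other genes of ATP and adenosine handling, 21 reached 1 FPKM and none was at least 1.5-fold apart on the scale of FPKM + 1, with a median log2 ratio of -0.08. On the CPM ratio, Slc29a2, a nucleoside transporter, was past 1.5-fold, with 46 and 25 reads (ratio 0.550, 95% interval 0.324 to 0.915). Bst1 and Acpp, ectoenzymes that act on NAD and on phosphates such as AMP, were the most abundant by mean, with Pnp, the purine nucleoside phosphorylase that degrades inosine. Bst1 had 60.6 and 54.6 FPKM, Acpp 39.3 and 50.4 FPKM, and Pnp 44.7 and 34.6 FPKM. The CPM ratios were 0.902 for Bst1, 1.28 for Acpp and 0.773 for Pnp. All 3 spans overlap another listed gene with reads, which for Pnp is its close relative Pnp2, so reads of these genes could be shared. In the read test 5 of 23 genes were called higher and 5 lower, close to the 21.9% and 22.2% of all genes.

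Tgfb1 (ENSMUSG00000002603, chromosome 7, 25687002 to 25705077), which encodes TGF-β1, was the second most abundant effector. It dropped from 8945 reads without CHBP to 7676 with CHBP, equal to 95.05 and 82.59 FPKM. The CPM ratio was 0.869 (95% interval 0.843 to 0.896), with an adjusted p of 2.14e-18 in the exact binomial test. The decrease of 12.5 FPKM thus exceeded counting error but not the 1.5-fold threshold, and its log2 ratio of -0.20 stood at percentile 26.4 of all genes. Tgfb2 and Tgfb3, the other ligands, had at most 22 reads in either library, so TGF-β mRNA in these cells was nearly all Tgfb1.

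The genes around TGF-β were described as a list without Tgfb1. Of 29 genes, 18 reached 1 FPKM, 14 of them above 0 and 4 below, with a median log2 ratio of 0.12, where 46.3% of all 10948 genes were above 0. In the read test 12 of 26 were called higher and 1 lower, which was Nrros, against 21.9% and 22.2% of all genes. Thbs1, thrombospondin 1, an activator of latent TGF-β, was the most abundant gene of all the pathway lists, at 1114 and 1458 FPKM and a CPM ratio of 1.31 (95% interval 1.30 to 1.32). Itgav, the αv integrin that takes part in the release of TGF-β, was at least 1.5-fold apart on the scale of FPKM + 1, with 337 and 646 reads and a CPM ratio of 1.94 (1.70 to 2.22). Skil, which restrains TGF-β signaling, was past 1.5-fold on the CPM ratio alone, with 372 and 605 reads (1.65, 1.45 to 1.88). Nrros, which holds latent TGF-β1 on myeloid cells, had 26.7 and 25.2 FPKM (ratio 0.942), and Tgfbi, a matrix protein induced by TGF-β, had 219.5 and 233.5 FPKM (ratio 1.06). With the length trend removed, Itgav was at 0.46, below the threshold, and Skil went from a log2 ratio of 0.42 to 0.12.

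Il10 (ENSMUSG00000016529, chromosome 1, 131019845 to 131024974), the anti-inflammatory cytokine, was counted with 3 reads without CHBP and 1 with CHBP. Both are at or under the floor of 3 reads, so no fold was computed and a difference in Il10 mRNA was not detectable at this depth. Of 18 genes of IL-10 signaling and Il10 regulation, 13 reached 1 FPKM, with 8 above 0 and 5 below and a median log2 ratio of 0.11. With the length trend removed the median was 0.03, with 7 of 13 above 0. Il10ra, the ligand-binding chain of the IL-10 receptor, was at least 1.5-fold apart. Its 2140 reads without CHBP compare with 1292 with CHBP, equal to 15.7 and 9.60 FPKM, a CPM ratio of 0.611 (95% interval 0.570 to 0.655). It overlaps no listed gene with at least 10 reads, and its log2 ratio was -0.66, and -0.72 with the length trend removed. The shared chain Il10rb had 19.2 and 20.7 FPKM. Zfp36, Jak1 and Socs3 were the most abundant of the list, with CPM ratios of 0.914, 1.29 and 0.894. The read test called 7 of 14 genes higher and 5 lower, against 21.9% and 22.2% of all genes.

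**Figure D4:**
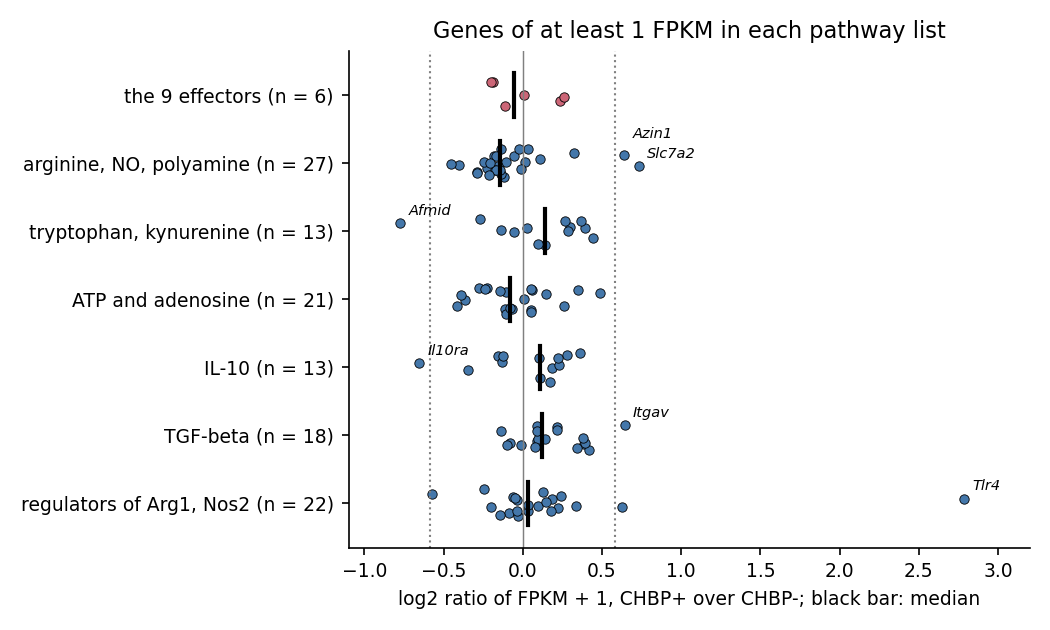
Log2 ratio of FPKM + 1, CHBP+ over CHBP- M-MDSC, of each gene of at least 1 FPKM in the effector set (red) and in the 6 pathway lists (blue). Black bars are medians, dotted lines mark 1.5-fold, and the genes beyond them that the text describes are named. None of the 6 effectors plotted passes a dotted line, while 7 genes of the pathway lists do.

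The receptors and transcription factors known to control Arg1 and Nos2 were present, since all 22 of that list reached 1 FPKM. Their median log2 ratio was 0.04, with 12 above 0 and 10 below. Csf2rb and Csf2ra, the chains of the GM-CSF receptor, had 714.7 and 902.9 FPKM and 100.6 and 87.4 FPKM. Their log2 ratios were 0.34 and -0.20, and 0.36 and 0.0050 with the length trend removed. Hif1a, a driver of Arg1 and Nos2 in low oxygen, had 113.2 and 132.3 FPKM, a ratio of 1.17. Stat6 and Il4ra, through which IL-4 turns on Arg1, had log2 ratios of 0.09 and -0.04. Cebpb, a transcription factor, had the lowest log2 ratio of the 22, at -0.571, and -0.325 with the length trend removed. Its reads numbered 1518 without CHBP and 1001 with CHBP, a CPM ratio of 0.668 (counting interval 0.616 to 0.724), just within 1.5-fold. The span of Cebpb overlaps that of Tmem189, another listed gene with reads. Tlr4, the receptor for endotoxin, which induces Nos2, was at least 1.5-fold higher, with 556 and 4443 reads. Nos2 itself stayed under 1 FPKM in both libraries. The read test called 8 of 22 genes higher and 4 lower, against 21.9% and 22.2% of all genes.

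The log2 ratio in these libraries followed gene length, which matters for effectors that range from 1428 bases (Arg2) to 9478 bases (Nt5e) in the length behind the FPKM. Its median was -0.30 over the 1096 shortest genes and 0.23 over the 1095 longest. At the length of Arg1 the trend stood at -0.25, and at that of Nt5e at 0.09. With the trend removed, Arg1 was at 0.26, Arg2 was at 0.07, Entpd1 was at 0.19, Nt5e at 0.14, Il4i1 at -0.20 and Tgfb1 at -0.20. Arg1 then stood at percentile 84.5 of all genes in place of 54.5. None of these 6 reached 1.5-fold on this scale either, and the SD of single genes around the trend was 0.30, wider than each of these values. The cause of the trend was not tested.

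**Figure D5:**
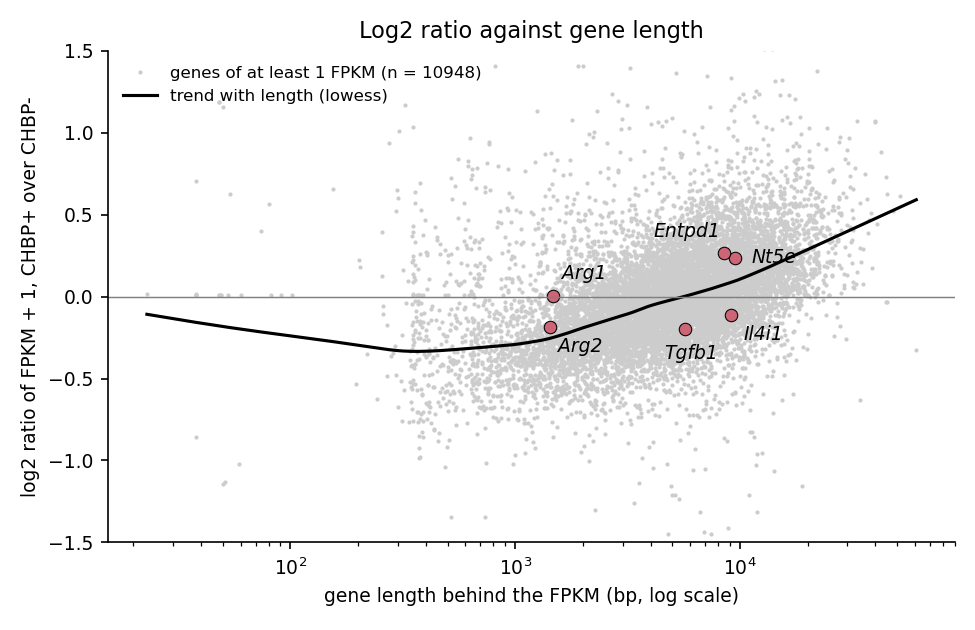
Log2 ratio of FPKM + 1 against the gene length behind the FPKM on a log axis, for 10948 genes of at least 1 FPKM (grey, with 40 outside the plotted range) and the 6 effectors among them (red). The black line is the trend with length. Arg1 lies on 0 but above the trend, and Tgfb1 and Il4i1 lie below it.

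The level of an effector per length also depends on the length used. The length behind the FPKM equals that of the longest coding transcript in GENCODE M1 for Arg1, Arg2, Nos2 and Il10. It is 1.102 times as long for Ido1, 2.02 times as long for Entpd1, 2.63 times for Tgfb1, 2.65 times for Nt5e and 3.96 times for the Il4i1 row. Per kilobase of the longest coding transcript, the levels in CHBP- M-MDSC would be 249.5 for Tgfb1, 81.2 for the Il4i1 row, 29.0 for Nt5e and 25.1 for Entpd1. Arg1 would still lead, with Tgfb1 second, but the Il4i1 row would pass Arg2, and Nt5e would pass Entpd1. The CPM ratio between the libraries is not touched by this choice. The log2 ratio of FPKM + 1 and the removal of the length trend both rest on the length behind the FPKM. They were not repeated with the other length.

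All 12 monocyte and sort markers, led by Lyz2, reached 1 FPKM, with a summed FPKM of 10851.2 in CHBP- and 8978 in CHBP+ M-MDSC. Lyz2 alone had 9756 and 7830 FPKM, most of each sum. Of the 12 markers, 6 had a log2 ratio above 0 and 6 below, where 46.3% of all genes of at least 1 FPKM were above 0. With the length trend removed the median of the 12 was 0.005. The main Itgam entry (CD11b) had 157.0 and 232.4 FPKM, and Ly6c2, the Ly6C marker, had 56.9 and 34.0 FPKM. Markers of other cells were present too, so that reaching 1 FPKM does not set monocytic cells apart. All 12 neutrophil markers, led by Mmp8, reached 1 FPKM, with a summed FPKM of 3384 and 3076, although Ly6g, which the sort excluded, had 2.19 and 2.12 FPKM. Of 12 dendritic cell markers 8 reached 1 FPKM, led by Cd74, with sums of 827.2 and 703.5 and Xcr1 at 0. Of 12 mast cell, basophil and eosinophil markers 11 did, led by Cpa3, with sums of 454.6 and 369.7. Of 12 lymphocyte markers 5 did, led by Cd79a, with sums of 35.6 and 23.5 and Ncr1 at 0. The 10 markers of alternatively activated macrophages, led by Chil3, summed to 1016 and 1084. For 12 endothelial and stromal markers, 4 of which reached 1 FPKM, led by Pecam1, the sum was 27.2 and 28.2. The part of these cells in the values of the effectors was not tested. In a bulk library, fewer cells of a type and less RNA per cell cannot be told apart.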

How the data were processed

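RNA of 2 libraries of M-MDSCs, 1 per condition, was sequenced by the authors as single-end 75-base reads. Per the labels, adapters were trimmed, 3' ends of low quality were clipped, and reads left short or matching ribosomal RNA were dropped. The methods name TopHat2, mm9 and HT-seq, whereas the submitters' processing notes list HISAT2 2.0.4, Cufflinks 2.1.1, Cuffdiff, mm10 and GRCm38. The listed coordinates of the 9 genes overlap their RefSeq genes on GRCm38.p6, closely for all but Il4i1, whose listed span is much longer. The deposited counts are whole reads per gene. The deposited FPKM follow from these counts by library size and 1 fixed length per gene, shared by both libraries. How reads of overlapping genes, several positions or either strand were counted is not given in the sources used here.

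The log2 ratio compares FPKM + 1 of CHBP+ with that of CHBP- M-MDSC, and the pseudocount shrinks differences of low genes. No model of replicate spread was fitted, since each condition has 1 library. Intervals are exact Clopper-Pearson (ratios) or Poisson (levels) intervals at 95%, and the read test was an exact binomial test over all genes, checked on simulated data. Reads are not independent molecules, so intervals, floors and tests cover counting error only. The floor was set at 3 reads, 0.182 CPM in CHBP- and 0.184 CPM in CHBP+ M-MDSC, and a gene with no read could still be present. The length trend was a lowess curve (fraction 0.3) over genes of at least 1 FPKM. Where a symbol had 2 rows, the row with more reads was used.

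The members and lists were chosen with earlier results of these data known. Named beside the members were the genes of each pathway list at least 1.5-fold apart and the 3 with the highest mean FPKM, and genes overlapping a member, except for 1 gene and 1 sequence that are not reported here. Others (Kmo, Kynu, Ahr, Ido2, Tdo2, Tgfb2, Tgfb3, Il10rb, Stat6 and Il4ra) were added after their values were seen. So were Itgam, Ly6c2, Ly6g, Haao, Paox, Slc29a2, Skil and Cebpb. No genes of similar pattern were sought, since over 2 libraries every gene correlates perfectly. Tried besides were 0.1 as pseudocount, no filter or a minimum of 5 FPKM, trimmed mean of M values (edgeR 4.0.16), median of ratios (DESeq2 1.42.0), CPM, length trend removal, a fold threshold of 2, the fold threshold joined with the read test, and sums with overlapping genes. Setting the median log2 ratio to 0, leaving out overlapping genes and levels by the longest coding transcript were chosen after seeing the data. Python 3.11.15, scipy 1.17.1, pandas 2.3.3, statsmodels 0.14.6 and R 4.3.3 were used.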

Additional observations from a re-analysis of the deposited data

How the results depend on the processing

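No paired analysis was possible because CHBP- and CHBP+ M-MDSC have a single library each, so that leaving out a replicate gives no comparison. With the length trend removed, the log2 ratio was 0.26 for Arg1, 0.067 for Arg2 (from -0.19), -0.20 for Il4i1 and 0.14 for Nt5e, all outside their counting intervals, while Tgfb1 and Entpd1 stayed within theirs. With the FPKM of Atf5 added, Il4i1 was at 0.47. The counts of effectors at least 1.5-fold apart among those past the filter stayed at 0 in both directions under each alternative run. The filter kept Nos2, Il10 and Ido1 out of these counts, except in the run with no filter, which kept the pseudocount of 1. The counts of 0 therefore say nothing on these 3 genes at a smaller pseudocount. Over all genes, 374 were at least 1.5-fold higher and 316 lower. A pseudocount of 0.1 gave 665 and 571, and the numbers were 218 and 209 with a minimum of 5 FPKM, 85 and 46 at a fold of 2, 609 higher with CPM and 157 lower with the length trend removed. Of the genes of the pathway lists, 5 were higher and 2 lower. Here 4 were lower with a pseudocount of 0.1, 1 was lower with a minimum of 5 FPKM and with overlapping genes left out (Afmid drops out), 1 was higher with the length trend removed, and 1 was higher and 0 lower at a fold of 2. The causes were not tested beyond the settings themselves. Trimmed mean of M values and median of ratios moved the median log2 ratio by 0.01 and 0.002, with no change of direction for the 9 genes. Nos2 moved from 0.20 on the log2 scale to 0.67 under the pseudocount of 0.1 and to 0.49 when CPM replaced FPKM, because a low level shrinks less there. Under the pseudocount of 0.1, Ido1 was at -0.998 and Il10 at -0.70, each from at most 3 reads in a library. Depth limits Nos2, Il10 and Ido1 in either direction.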

Other observations

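The 10 markers of alternatively activated macrophages, which myeloid cells often express together with Arg1 under IL-4, did not all move in one direction. Of the 8 that reached 1 FPKM, 5 had a log2 ratio above 0 and 3 below, with a median of 0.04. With the length trend removed, 7 of the 8 were above 0, with a median of 0.24. On that scale 49.5% of all genes of at least 1 FPKM were above 0. In the read test 4 of the 10 markers were called higher (Chil3, Mrc1, Pdcd1lg2 and Fn1) and 1 lower (Clec10a), against 21.9% and 22.2% of all genes. The most abundant, Chil3, Retnla and Mgl2, had 530.4 and 546.0, 187.8 and 179.5, and 159.6 and 164.3 FPKM in CHBP- and CHBP+ M-MDSC. Their CPM ratios were 1.03, 0.956 and 1.03. The ratios of Mrc1, the mannose receptor, and Pdcd1lg2, the checkpoint ligand PD-L2, were 1.45 and 1.14, and that of Clec10a, a lectin, was 0.865. Fn1, fibronectin, had 18628 and 33098 reads, a ratio of 1.80. Its log2 ratio was 0.84, and 0.577 with the length trend removed, just below the threshold of 1.5-fold. The span of Fn1 overlaps that of Apol7d, a listed gene with at least 10 reads.

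The following genes were chosen after their values were seen. Below 1 FPKM, Enpp1, an ectoenzyme that makes AMP from ATP and so feeds Nt5e, had 65 reads in CHBP- and 140 in CHBP+ M-MDSC, a CPM ratio of 2.18 (95% Clopper-Pearson interval 1.61 to 2.97). Itgb8, an integrin chain that activates latent TGF-β, had 1 and 11 reads. Adora2b, the adenosine receptor with the most mRNA here, had 924 and 676 reads, or 30.4 and 22.5 FPKM, a ratio of 0.741 (0.6698 to 0.8189). The enzymes Entpd1 and Nt5e were thus higher and this receptor lower in the CHBP+ library, each within 1.5-fold. With the length trend removed, the log2 ratio of Adora2b went from -0.42 to -0.21, with Entpd1 at 0.19 and Nt5e at 0.14. Each of these is smaller than the SD of single genes around the trend, 0.30.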
